A study of Rattus norvegicus with 20 samples.

Results

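The genes described here code for the subunits of 2 proton pumps, the mitochondrial ATP synthase and the vacuolar proton ATPase (V-ATPase), in the medial prefrontal cortex (mPFC) of rats. Members were the symbols of the count matrix that begin with Atp5 (F-type, ATP synthase) or with Atp6v or Atp6ap (V-type, V-ATPase), provided that at least 5 reads were counted in at least 10 of the 20 libraries. Of 42 matching symbols, 37 met this minimum, 16 F-type and 21 V-type, out of 16605 genes that met it among 31038 in the matrix. The 5 that did not were *Atp5f1*, *Atp6v0d2*, *Atp6v1b1*, *Atp6v1e2* and *Atp6v1g3*. Each of the 37 had at least 42 reads in every library, so none was kept through a single group. All animals were male Sprague-Dawley rats without a genetic modification named in the labels, aged 6 to 8 weeks when treatment began. In the LSD group, 10 rats received LSD tartrate at 0.16 mg/kg by intraperitoneal injection every other day for 90 days, and in the saline group 10 rats received sterile saline on the same schedule. The labels give 3 weeks without injections before the tissue was taken, and the study's methods give a longer interval and older animals for both groups alike. Each library came from 1 rat.

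Both pumps are rotary machines with a soluble sector that handles ATP and a membrane sector that conducts protons. ATP synthase sits in the inner mitochondrial membrane, where protons flowing through Fo turn a ring of c subunits and the central stalk, and the catalytic β subunits of F1 release ATP. The V-ATPase runs the other way: V1 hydrolyses ATP and V0 pumps protons into lysosomes, endosomes and synaptic vesicles, where the proton gradient drives the loading of neurotransmitters. Most F-type subunits are made from a single nuclear gene, and several V-type subunits from a choice of paralogs that differ between tissues.

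Reads on genes ranged from 16346629 to 25552681 per LSD rat and from 11098076 to 24201351 per control, and no pair of libraries was identical. Levels are given as normalised RPM, the reads of a gene relative to all reads on genes (RPM) after scaling by TMM (trimmed mean of M values), which corrects for composition. RPM is not divided by gene length, so levels are compared between rats and not between genes. Fold changes were tested by edgeR (quasi-likelihood F test) with p adjusted over all 16605 genes after Benjamini and Hochberg, and a gene was called at an adjusted p under 0.05. Markers of excitatory neurons were at 1812 to 2513 RPM in sum in LSD-treated rats and 1926 to 2901 RPM in controls, and no marker of any of the 10 cell types examined was at 0. The 5 deepest libraries, LSD rats 7 to 10 and saline rat 2 (22770382 to 25552681 reads, against at most 20374594 in the others), also stood together on the first principal component of all genes, at 14.7 to 22.6 against -28.0 to 9.59. As 4 of the 5 are LSD-treated, results are also given without these libraries and with a term for them in the fit, both chosen after the data were seen. At the other end of that component stood saline rats 1, 3, 4 and 5, at -28.0 to -18.2. They had the fewest reads of all libraries, 11098076 to 15346213. All are controls, and both of these fits keep them without a term. Their part in the results was not tested.

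Promoter windows are shown first, because 10 of the members were lower after LSD and the windows let their upstream letters be compared. RefSeq's GRCr8 tables gave a window for 35 of the 42 members. The 4 below are the 250 bases before the annotated start, 5′ to 3′, of *Atp5l*, the member with the largest fold change, of *Atp5g1* and *Atp6v0c*, which code for the ring subunits c of either pump and were lower, and of *Atp6v0d1*, a V-type gene that was not called. All 4 lie on the minus strand, and capitals mark the letters of the motifs searched.
Atp5l, chr8:54130408-54130657: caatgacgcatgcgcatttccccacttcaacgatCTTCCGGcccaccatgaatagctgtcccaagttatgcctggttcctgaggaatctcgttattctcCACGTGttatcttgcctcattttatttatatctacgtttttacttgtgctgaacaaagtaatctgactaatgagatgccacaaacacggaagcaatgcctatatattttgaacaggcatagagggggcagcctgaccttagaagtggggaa
Atp5g1, chr10:81523346-81523595: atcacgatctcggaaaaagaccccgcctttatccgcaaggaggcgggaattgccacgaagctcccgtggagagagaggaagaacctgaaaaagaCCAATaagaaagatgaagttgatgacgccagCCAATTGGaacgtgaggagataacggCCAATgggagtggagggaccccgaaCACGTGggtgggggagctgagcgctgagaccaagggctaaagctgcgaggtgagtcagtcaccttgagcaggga
Atp6v0c, chr10:13705843-13706092: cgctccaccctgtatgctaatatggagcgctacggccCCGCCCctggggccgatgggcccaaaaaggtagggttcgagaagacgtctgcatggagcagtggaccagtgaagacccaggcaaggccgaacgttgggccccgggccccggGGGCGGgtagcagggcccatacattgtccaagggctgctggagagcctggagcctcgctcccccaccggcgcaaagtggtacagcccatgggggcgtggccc
Atp6v0d1, chr19:50357249-50357498: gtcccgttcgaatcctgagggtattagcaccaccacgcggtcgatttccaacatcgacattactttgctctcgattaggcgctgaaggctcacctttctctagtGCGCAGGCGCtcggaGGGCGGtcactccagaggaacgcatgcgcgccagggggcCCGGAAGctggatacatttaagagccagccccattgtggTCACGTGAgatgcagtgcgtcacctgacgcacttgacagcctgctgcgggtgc
The *Atp5l* window holds the ETS letters CCGGAAG, read on the opposite strand, from position -216 and the E-box CACGTG from position -151. In *Atp5g1* an E-box begins at position -74, and the CCAAT letters stand upstream of it 3 times on the printed strand and 1 time on the other, the latter overlapping a printed copy. The *Atp6v0c* window carries none of these and has the GC box GGGCGG once on each strand. *Atp6v0d1* alone among the 35 members with a window holds the CLEAR element TCACGTGA, the binding motif of TFEB, which regulates lysosomal genes. Its E-box lies inside that element. Its window also holds the ETS and NRF1 letters and the GC box.

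Each motif was searched on both strands in all 33469 windows of this length. ETS letters were in 4 of 14 F-type windows, 2 of 17 V-type windows and 7.27% of all windows. The E-box was in 3 F-type windows, 1 V-type window and 5.59% of all, and the NRF1 letters (GCGCA and GCGC with 1 base between) were in 3, 1 and 3.75%. The CLEAR element was in 0 F-type windows, 1 V-type window and 0.657% of all. CCAAT was held by 5 F-type and 7 V-type windows against 34.0% of all, and the GC box by 5 F-type and 12 V-type windows against 30.5%. The median GC content was 55.2% over the members' windows and 51.2% over all windows, which were not limited to tested genes. Among the 9 called members with a window, 1 held ETS letters, 2 the E-box and 4 each CCAAT or the GC box. A match is a match of letters in this window and no evidence of binding.

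After LSD, 10 of the 37 genes were lower and 0 were higher. Over all genes tested, 8.54% were called lower and 6.48% higher. The 10 were 5 of 16 F-type genes (31.25%) and 5 of 21 V-type genes (23.8%). At an unadjusted p under 0.05, edgeR gave 6 F-type and 5 V-type genes lower and 0 higher, and DESeq2, which called 10.3% of all genes lower and 8.07% higher, gave the same 5 and 5 lower and 0 higher at an adjusted p. The median log2 fold change was -0.12 over F-type genes and -0.05 over V-type genes, against 0.00 over all genes. Fold changes were below 0 in 13 of 16 F-type genes, 13 of 21 V-type genes and 49.6% of all genes. With the 5 deepest libraries left out, which leaves 6 LSD-treated rats and 9 controls, the same 5 F-type genes and 4 of the V-type genes were lower and 0 members were higher, against 2.81% of genes lower and 3.36% higher. With a term for these libraries 9 F-type and 4 V-type genes were lower and 0 higher, against 6.91 and 5.72% of all genes. The RNA came from whole tissue, so fewer cells of a type and less RNA per cell cannot be told apart.

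**Figure D1:**
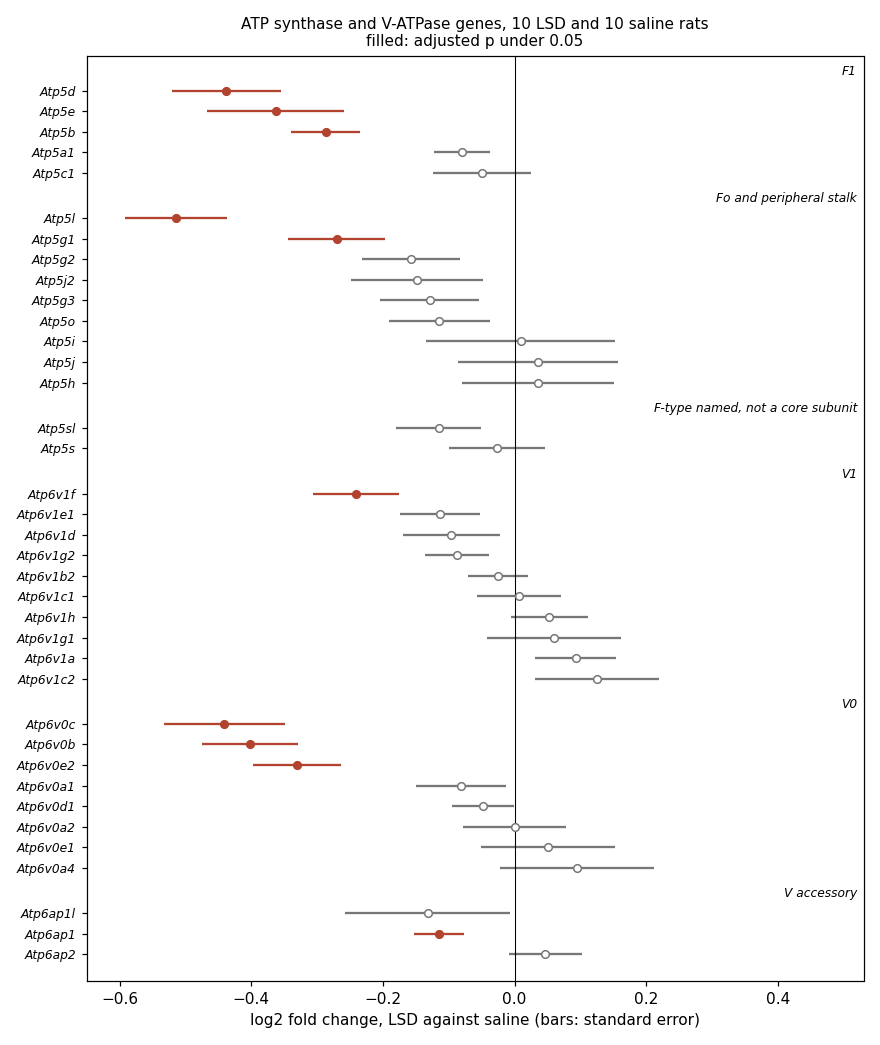
Log2 fold change of the 37 genes, LSD-treated rats against controls, by sector of the pump, with bars for the standard error and filled points for an adjusted p under 0.05 (n = 10 rats per group). Filled points run from -0.51 (*Atp5l*) to -0.11 (*Atp6ap1*), and the largest positive value is 0.13 (*Atp6v1c2*).

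In every called gene the ranges of both groups overlapped. Over all genes, 14 (0.0843%) had an LSD range wholly below the control range, and none of these was a member. All 10 LSD-treated rats lay below the control median in 9 of the 37 members, against 9.59% of all genes. Of these 9, 8 were called and 1, *Atp5a1*, was not.

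The F1 sector held 3 of the called genes among its 5 (β, δ and ε). *Atp5b* codes for the catalytic β subunit. Its level was 1193, 1268 and 1418 RPM (lowest, median and highest rat) after LSD and 1307, 1567 and 1779.9 RPM in controls. In 7 LSD-treated rats it was below the lowest control, and 9 controls were above the highest LSD-treated rat. The log2 fold change was -0.29 (SE 0.053, adjusted p = 0.00408, edgeR), a decrease of 18.0% (fold 0.820). *Atp5a1*, which codes for the α subunit that alternates with β in the F1 hexamer, was at -0.08 on the log2 scale (adjusted p = 0.208). Its rats spanned 721 to 796 RPM after LSD and 710.3 to 876 RPM in controls, so the LSD range lay inside the control range.

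*Atp5d* and *Atp5e* code for δ and ε, which sit at the foot of the central stalk where it meets the c ring. *Atp5d* was at 217, 239 and 297 RPM after LSD and at 247, 338 and 403 RPM in controls. The 6 lowest LSD-treated rats were below every control, and the log2 fold change was -0.44 (SE 0.082, adjusted p = 0.00440). *Atp5d* overlaps *Cbarp*, a gene for a regulator of calcium channels, on the opposite strand in GRCr8. The strand setting of the counting is not given in the sources used here, and without strand the reads of these genes cannot be told apart. *Cbarp* itself was at -0.23 on the log2 scale (adjusted p = 0.0994).

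*Atp5e* was at 90.5, 107 and 141 RPM after LSD and 114, 139 and 205 RPM in controls. The groups overlapped more than for *Atp5b* and *Atp5d*, with 9 of 10 LSD-treated rats below the control median and 5 below the lowest control. Its log2 fold change was -0.36 (SE 0.10, adjusted p = 0.0237). LSD rats 7 to 10 were at 122 to 141 RPM and the other 6 at 90.5 to 115 RPM, and without the 5 deepest libraries the log2 fold change was -0.55 (adjusted p = 0.0206). *Atp5c1*, the gene of the γ shaft, was at -0.05 on the log2 scale (adjusted p = 0.701).

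Among 9 genes of Fo and the peripheral stalk, 2 were lower. *Atp5l*, the gene of subunit g, a small membrane subunit known for its place where ATP synthase dimers meet, had the largest change of all members. Its level was 71.2, 81.1 and 100.5 RPM after LSD and 94.8, 121 and 141 RPM in controls, with means of 83.1 ± 10.5 and 119 ± 15.0 RPM (SD, n = 10 each). In 8 LSD-treated rats it was below the lowest control, and 9 of 10 controls were above the highest LSD-treated rat. The log2 fold change was -0.51 (SE 0.077, adjusted p = 0.00280), a decrease of 30.0%. *Atp5l* was singled out with its result known, so these values are a description. Without the 5 deepest libraries its log2 fold change was -0.61 (adjusted p = 0.0205). RefSeq names 11 copies of this gene, 8 of them pseudogenes, and how reads shared with a copy were counted is not given in the sources used here. The same limit holds for other called members, with 2 pseudogenes named for *Atp5b*, 1 for *Atp5e* and 2 for *Atp6v0c*. *Atp5b* also overlaps 3 other RefSeq genes.

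The c subunit, which forms the rotating ring, is made from 3 genes that give the same mature protein. *Atp5g1* was at 57.6, 66.6 and 77.7 RPM after LSD and 68.8, 80.8 and 109 RPM in controls, with all 10 LSD-treated rats below the control median. Its log2 fold change was -0.27 (SE 0.074, adjusted p = 0.0194). *Atp5g2* (-0.16, adjusted p = 0.153) and *Atp5g3* (-0.13, adjusted p = 0.256) were not called. For *Atp5g2* the ranges were 53.9 to 74.0 RPM after LSD and 61.5 to 92.7 RPM in controls, and for *Atp5g3* 158 to 208 RPM and 164 to 267 RPM. With a term for the 5 deepest libraries both were lower, at -0.23 (adjusted p = 0.0266) and -0.20 (adjusted p = 0.0471), but neither passed when these libraries were left out (adjusted p = 0.0874 and 0.185). Whether the 3 genes differ from each other in their change was not tested. RefSeq names 4 copies of *Atp5g1* and 6 of *Atp5g2*.

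The other 5 genes of this sector were not called. *Atp5h*, for the stalk subunit d, had the largest positive value among F-type genes at 0.04 (adjusted p = 0.871), with 60.9 to 91.3 RPM after LSD and 52.9 to 107.5 RPM in controls. *Atp5j* (coupling factor F6) and *Atp5i* (subunit e, which pairs with g) were at 0.04 and 0.01. *Atp5j2* (subunit f) was at -0.15 and *Atp5o*, for the OSCP subunit that joins the stalk to F1, at -0.11. In all 5 the deepest LSD libraries stood above the rest of their group. For *Atp5i*, LSD rats 7 to 10 were at 59.4 to 70.0 RPM and the other 6 at 37.6 to 43.3 RPM, with saline rat 2 at 78.3 RPM, and for *Atp5h* they were at 83.4 to 91.3 RPM and 60.9 to 69.2 RPM. With the 5 deepest libraries left out *Atp5h* was at -0.07 (adjusted p = 0.750), and with a term for them *Atp5j2* (-0.28, adjusted p = 0.0305) and *Atp5o* (-0.20, adjusted p = 0.0417) were lower. *Atp5s* and *Atp5sl*, named after ATP synthase without being core subunits, were at -0.03 and -0.12, and neither was called.

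**Figure D2:**
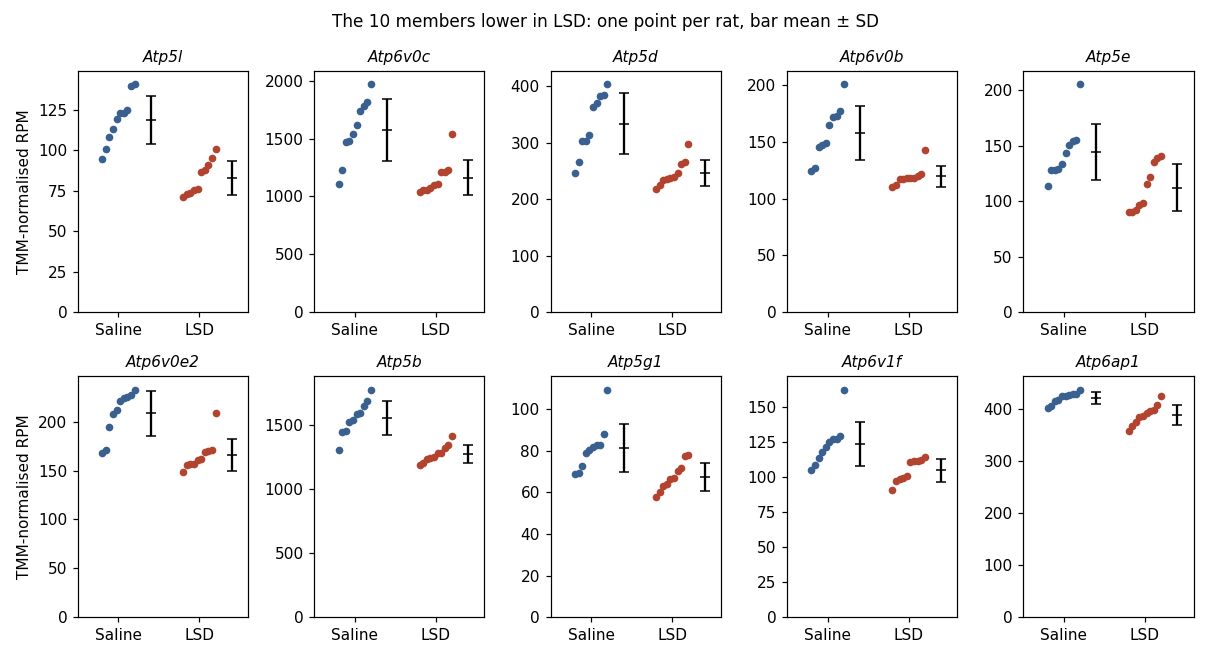
Normalised RPM of the 10 called genes, 1 point per rat in order of level within its group, with mean and SD beside the points (10 controls in blue, 10 LSD-treated rats in red). The *Atp5l* points of the LSD group run from 71.2 to 100.5 RPM and those of the controls from 94.8 to 141 RPM, and the ranges overlap in each panel.

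*Atp5f1*, the gene of the peripheral stalk subunit b, failed the read minimum in an unusual way. It had 318 reads in LSD rat 8, 143 in LSD rat 7 and 107 in saline rat 4, and 0 to 7 reads in the 17 remaining rats. Both groups therefore hold libraries with and without reads on this gene. The protein it encodes is a core subunit, and RefSeq names 3 pseudogenes of it. With 5 libraries at 5 or more reads it entered no test.

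**Figure D3:**
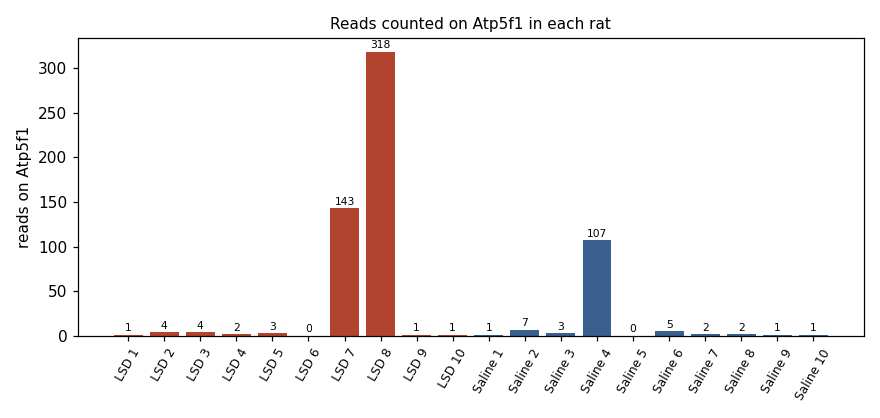
Reads counted on *Atp5f1* in each of the 20 rats, LSD-treated in red and controls in blue, with the count above each bar. The bars of LSD rat 7 (143), LSD rat 8 (318) and saline rat 4 (107) stand above 100 reads, and no other bar passes 7.

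Of 10 V1 genes, 1 was lower. *Atp6v1f* codes for subunit F of the rotating shaft. It was at 91.1, 106 and 114 RPM after LSD and 105.5, 123 and 163 RPM in controls. All 10 LSD-treated rats were below the control median and 7 controls were above the highest LSD-treated rat. The log2 fold change was -0.24 (SE 0.065, adjusted p = 0.0187). The large subunits of the V1 head were not called. *Atp6v1a*, for the catalytic A subunit, was at 0.09 on the log2 scale (adjusted p = 0.324), with 3 of 10 LSD-treated rats below the control median. *Atp6v1b2*, for the brain form of subunit B, was at -0.03 (adjusted p = 0.759), with 703 to 871 RPM after LSD and 719 to 849.9 RPM in controls.

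Paralogs of the remaining V1 subunits were likewise not called. *Atp6v1c1* and *Atp6v1c2*, for forms of the C subunit that clamps the stalks, were at 0.01 and 0.13. *Atp6v1c2* was the largest positive value of all members (adjusted p = 0.386), at 3.71 to 5.12 RPM after LSD and 3.07 to 4.82 RPM in controls. For the stator subunits, *Atp6v1e1* was at -0.11 (adjusted p = 0.214), *Atp6v1g1* at 0.06 (adjusted p = 0.737) and *Atp6v1g2*, the neuronal form, at -0.09 (adjusted p = 0.227). *Atp6v1d* and *Atp6v1h* were at -0.10 and 0.05. The genes *Atp6v1b1*, *Atp6v1e2* and *Atp6v1g3*, forms known from other tissues, had at most 3, 9 and 1 reads in any library.

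V0, the membrane sector, held 3 called genes among 8, and 2 of them code for the proteolipid ring that carries the protons. *Atp6v0c*, for subunit c, was at 1036, 1103 and 1536 RPM after LSD and 1109, 1581 and 1969 RPM in controls. All 10 LSD-treated rats were below the control median, and the highest of them, LSD rat 1, stood at 1536 RPM where the next was at 1225 RPM. The highest controls were saline rats 1, 3, 4 and 5, the libraries with the fewest reads, at 1743 to 1969 RPM. The log2 fold change was -0.44 (SE 0.092, adjusted p = 0.00666), the largest decrease among V-type genes. *Atp6v0b*, for the related ring subunit c″, was at 110.1, 118 and 143 RPM after LSD and 124, 157 and 200.5 RPM in controls. In 9 of 10 LSD-treated rats it was below the lowest control, with LSD rat 1 again the exception. Its log2 fold change was -0.40 (SE 0.073, adjusted p = 0.00408).

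*Atp6v0e2*, for a small membrane subunit, was at 149, 161 and 209 RPM after LSD and 168, 217 and 233 RPM in controls. The log2 fold change was -0.33 (SE 0.067, adjusted p = 0.00623), and 6 LSD-treated rats were below the lowest control. Its paralog *Atp6v0e1* was at 0.05 (adjusted p = 0.784), with 14.5 to 25.0 RPM after LSD and 15.0 to 21.0 RPM in controls. The difference between the paralogs was not tested. Subunit a anchors V0 to the stalks and directs the pump to its membrane, and its genes *Atp6v0a1* (-0.08, adjusted p = 0.445), *Atp6v0a2* (0.00, adjusted p = 1.0) and *Atp6v0a4* (0.09, adjusted p = 0.623) were not called. *Atp6v0d1*, for the subunit that couples ring and shaft and whose promoter holds the CLEAR element, was at -0.05 (adjusted p = 0.526). *Atp6v0d2*, known from bone and kidney, had at most 2 reads.

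Of 3 accessory genes, *Atp6ap1* was lower by the smallest margin of the called members. It codes for Ac45, a V-ATPase partner abundant in neurons. It was at 357, 389 and 424 RPM after LSD and 402, 423 and 436 RPM in controls, with 8 LSD-treated rats below the lowest control and 1 above the control median. The log2 fold change was -0.11 (SE 0.038, adjusted p = 0.0438). This call was lost in 16 of 20 fits that left out 1 rat each, with adjusted p up to 0.0848, and was kept without LSD rat 1, LSD rat 3, saline rat 2 or saline rat 10. It was also lost under 6 of 9 alternative settings, and without the 5 deepest libraries (-0.08, adjusted p = 0.311). *Atp6ap2*, for the (pro)renin receptor, was at 0.05 and *Atp6ap1l* at -0.13, and neither was called.

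The members of 1 complex can be set against each other within a rat, which does not depend on how libraries are scaled. The ratio of *Atp5b* to *Atp5a1* reads was 1.57, 1.66 and 1.86 after LSD (lowest, median and highest) and 1.78, 1.96 and 2.05 in controls. For *Atp5l* to *Atp5a1* it was 0.0908, 0.107 and 0.132 against 0.124, 0.147 and 0.170, and for *Atp5d* to *Atp5a1* 0.285, 0.320 and 0.389 against 0.326, 0.419 and 0.468. In each ratio all 10 LSD-treated rats were below the control median while the ranges overlapped. Within the V-ATPase, *Atp6v0c* to *Atp6v1a* was 2.76, 3.15 and 3.95 against 3.35, 4.64 and 6.12. The ratio of *Atp6v0b* to *Atp6v1b2* was 0.136, 0.150 and 0.171 against 0.161, 0.197 and 0.240, and that of *Atp5g1* to *Atp5g3* 0.339, 0.369 and 0.404 against 0.363, 0.409 and 0.4658. In these 6 ratios the highest LSD-treated rat was LSD rat 1 and the lowest control saline rat 2. LSD rat 1 had the fewest reads of its group, and saline rat 2 is among the 5 deepest libraries. Both V-type pairs set a short gene against a long one, *Atp6v0c* (6384 bases) against *Atp6v1a* (53804) and *Atp6v0b* (1517) against *Atp6v1b2* (24135). Their ratios are therefore not free of the trend with span given below, while both genes of each F-type pair are under 10000 bases. The pairs were chosen with the fold changes known, so they are described and not tested.

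**Figure D4:**
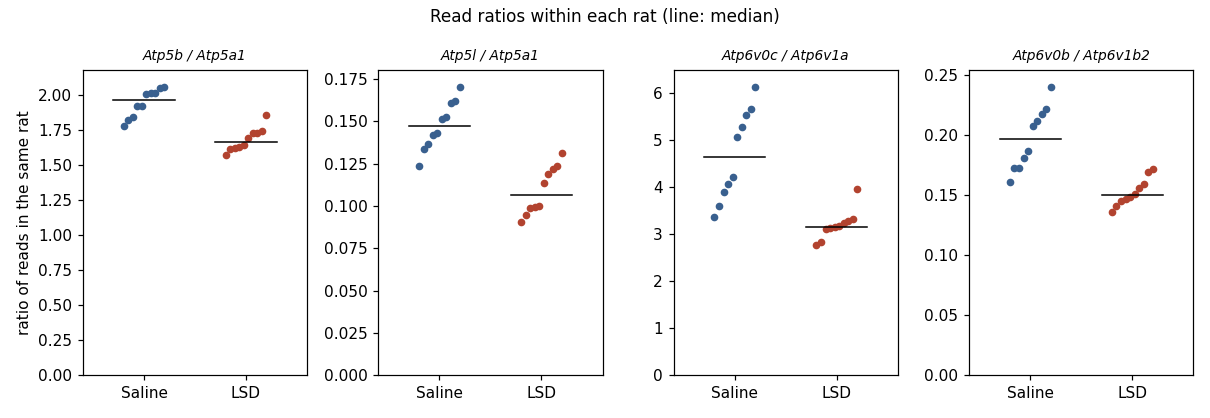
Ratio of reads between subunits of the same pump in each rat, in order of size within the group (10 controls in blue, 10 LSD-treated rats in red, black line at the median), with axes from 0. The median of *Atp6v0c* to *Atp6v1a* is 3.15 after LSD and 4.64 in controls, and in each panel the highest LSD-treated rat reaches into the control range.

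The called members are short genes. Genomic span, the distance from start to end of a gene in the GRCr8 annotation, was 1517 to 7951 bases for the 10. Among the 19 members under 10000 bases, 10 were lower, and among the 18 of 10000 bases or more 0 were called (edgeR), with 1 lower at an unadjusted p under 0.05 and 0 by DESeq2. Over the genome, of 3758 tested genes under 10000 bases 685 (18.2%) were lower and 49 (1.3%) higher, and of 11171 longer genes 690 (6.18%) were lower and 965 (8.64%) higher. The limit of 10000 bases was set after the values were seen. Among short genes, 5 of 12 F-type and 5 of 7 V-type members were lower. The V-type genes that were not called include the longest members, such as *Atp6v1h* with 105668 bases, *Atp6v0a4* with 81948 and *Atp6v1a* with 53804.

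Across the 14929 genes with a span, Spearman's rho between log2 fold change and span was 0.36. Each rat's smoothed deviation along span was therefore entered into the fit as a centred offset, after which rho was 0.058. Under this offset 6.83% of all genes were lower and 3.41% higher, and 3 F-type and 3 V-type members were lower. These were *Atp5l* (-0.45, adjusted p = 0.00347), *Atp5d* (-0.38, adjusted p = 0.00690), *Atp5b* (-0.22, adjusted p = 0.00889), *Atp6v0c* (-0.37, adjusted p = 0.0124), *Atp6v0b* (-0.31, adjusted p = 0.00719) and *Atp6v0e2* (-0.25, adjusted p = 0.0156). The others lost their call, *Atp5e* at -0.28 (adjusted p = 0.0598), *Atp5g1* at -0.19 (adjusted p = 0.0655), *Atp6v1f* at -0.16 (adjusted p = 0.0633) and *Atp6ap1* at -0.05 (adjusted p = 0.374). Scaling by total counts in place of TMM left the same 6 called. It also turned the balance over all genes, from 56.9% of calls lower to 36.3% (5.17% of genes lower, 9.06% higher), while the 6 members remained lower.

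**Figure D5:**
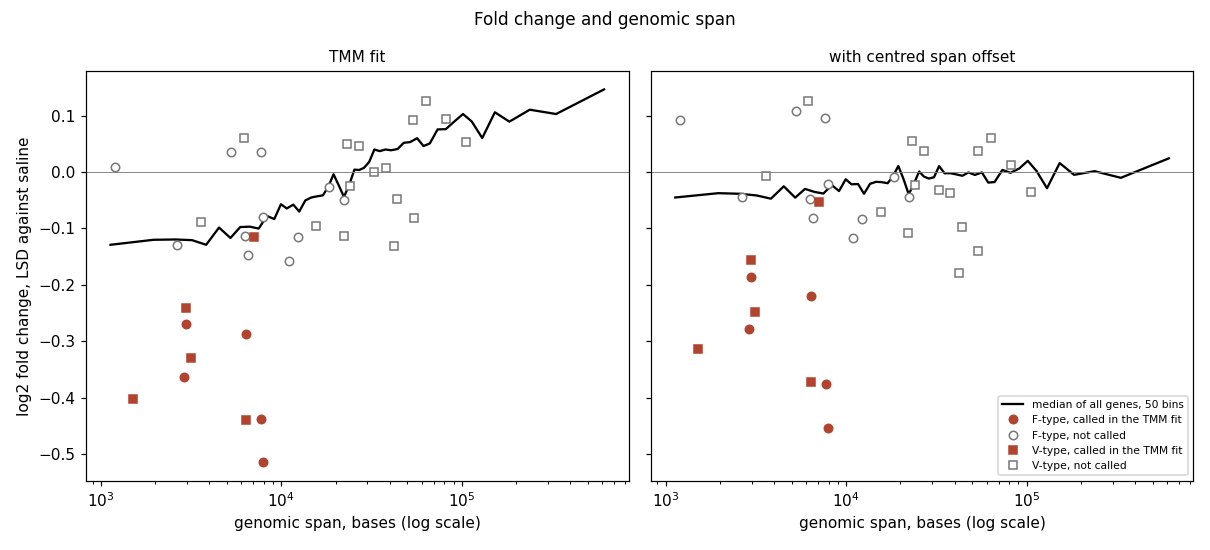
Log2 fold change against genomic span in bases (log axis) for F-type members (circles) and V-type members (squares), filled where called under TMM, with the median of all genes in 50 bins of span as a line, before (left) and after (right) the centred span offset. The line climbs with span on the left and is nearly level on the right, and *Atp5l*, *Atp5d* and *Atp6v0c* lie at -0.45, -0.38 and -0.37 on the right.

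Most members varied more between controls than between LSD-treated rats. The coefficient of variation over controls was 6.36 to 25.8% among F-type genes (median 15.2%) and 2.57 to 24.4% among V-type genes (median 11.8%), with medians of 10.7 and 9.23% over LSD-treated rats. It was larger in controls for 13 of 16 F-type genes and 16 of 21 V-type genes. The same was true of 12865 of all 16605 genes, whose medians were 16.3% in controls and 12.4% after LSD. *Atp6ap1* varied least and *Atp5i* most among members in controls.

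The same rats stood at the end of their group in many members. In 10 of the 37, 8 F-type and 2 V-type, LSD rats 7 to 10 were all above the other 6 LSD-treated rats, against 7.67% of all genes, and in 0 all below, against 7.10%. The 8 F-type genes were *Atp5c1*, *Atp5e*, *Atp5g3*, *Atp5h*, *Atp5i*, *Atp5j*, *Atp5j2* and *Atp5o*, of which *Atp5e* was called. LSD rat 7 was the highest of its group in 9 members and LSD rat 1 in 8. Saline rat 9 was the highest control in 17 of 37 members, 11 of them F-type, and saline rat 10 the lowest control in 16. LSD rat 2 was the lowest LSD-treated rat in 13 members. In the 10 called genes LSD rat 1 was the highest of its group in 7 and saline rat 10 the lowest of its group in 7, which narrows the gap between groups. LSD rat 1 had the fewest reads of its group (16346629) and its lowest value on the first principal component (-10.95). Saline rat 10, with 19368354 reads, stood at 9.59. Whether the levels of the called genes follow depth within a group was not tested. All 5 F-type calls held in each of 20 fits that left out 1 rat, and the V-type count was 4 or 5. Without saline rat 9 the F-type median log2 fold change was -0.07.

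Summed over members, F-type genes were at 3150.1, 3402 and 3638 RPM after LSD (lowest, median and highest rat) and 3349, 3948 and 4704 RPM in controls. V-type genes were at 5334, 5721 and 6366 RPM after LSD and 5525, 6501 and 6815 RPM in controls. Both sums overlapped between groups. All 5 oligodendrocyte markers and all 6 striatal neuron markers had log2 fold changes below 0, at -0.48 to -0.22 and -1.06 to -0.27. The oligodendrocyte sum was 1980.1, 3510 and 5328 RPM after LSD and 1937, 4350 and 6941 RPM in controls. The striatal sum was 200.8, 244 and 435 RPM against 230.4, 300 and 609 RPM. None of these markers was called by edgeR (2 oligodendrocyte and 6 striatal markers were lower at an unadjusted p under 0.05). DESeq2 called 1 oligodendrocyte marker and 0 striatal markers lower. Of 4 blood markers all were below 0 and 1 was called, with sums of 196 to 485 RPM against 272 to 759.7 RPM. Of 4 oligodendrocyte precursor markers 1, *Olig1*, was lower (-0.32, adjusted p = 0.0285). Of 5 inhibitory neuron markers, *Sst* was lower (-0.28, adjusted p = 0.0222) and *Gad2* (0.23, adjusted p = 0.0369) and *Vip* (0.27, adjusted p = 0.0486) were higher. Of 4 excitatory neuron markers 3 were below 0 (-0.17 to 0.18 over the 4), with a median sum of 2075 RPM after LSD and 2349 RPM in controls. Fold changes were below 0 in 2 of 5 astrocyte markers, 1 of 5 microglial markers and 2 of 4 endothelial markers. In each of these sets edgeR called 0, and DESeq2 called 1 endothelial marker lower. Choroid plexus markers were near the floor, at 1.19 to 8.69 RPM and 1.91 to 12.6 RPM. The part of these markers in the members' values was not tested.

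Genes that work with the pumps were read from lists of 61 symbols, older and newer spellings included, of which 49 met the read minimum. Of these, 8 were lower and 4 higher, where 8.54 and 6.48% of all genes were, and their median log2 fold change was -0.03. These counts were not stable. The lower count ran from 0 to 11 over the alternative settings and from 3 (without saline rat 9) to 11 (without saline rat 10) with 1 rat left out, and it was 1 without the 5 deepest libraries. The higher count was 2 without those libraries. For 7 genes of ATP synthase assembly and regulation, edgeR called 0, with 0 at an unadjusted p under 0.05 and 0 by DESeq2. Among 7 substrate carriers, *Slc25a4*, the adenine nucleotide translocator of heart, muscle and brain, was at -0.20 (adjusted p = 0.0174) and *Vdac2*, an outer membrane channel, at -0.17 (adjusted p = 0.0203). Both had all 10 LSD-treated rats below the control median. *Slc25a4* was at 544 to 645 RPM after LSD and 569 to 790.3 RPM in controls, and *Vdac2* at 136 to 161 RPM and 152 to 194 RPM. *ATP6* and *ATP8*, the subunits encoded by the mitochondrial genome, were at -0.01 and 0.08 (adjusted p = 0.986 and 0.879). They overlap each other in that genome, and their summed level ran from 3024 to 9945 RPM in controls and from 5273 to 7870 RPM after LSD.

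On the side of the V-ATPase, regulators moved in both directions. *Dmxl1*, a subunit of the RAVE-like complex that reassembles V1 with V0, was higher, at 35.0, 40.5 and 48.9 RPM after LSD and 22.4, 28.7 and 38.8 RPM in controls (log2 fold change 0.44, SE 0.092, adjusted p = 0.00666). All 10 LSD-treated rats were above the control median. *Rogdi*, a further partner of that complex, was lower (-0.20, adjusted p = 0.0435). The TLDc-domain genes *Oxr1* (0.30, adjusted p = 0.0182) and *Ncoa7* (0.18, adjusted p = 0.0319) were higher. Of 4 assembly genes, *Tmem9* was lower (-0.18, adjusted p = 0.0400). A list of 6 genes covered Ragulator, a complex that senses the pump at the lysosome, together with a partner of it. Of these, *Lamtor1* (-0.22, adjusted p = 0.0427) and *Lamtor4* (-0.21, adjusted p = 0.0311) were lower.

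Among 9 vesicular transporters that use the proton gradient, *Slc32a1*, the GABA transporter of synaptic vesicles and so a gene of the inhibitory neurons whose markers are given above, was lower, at 167, 189.8 and 221 RPM after LSD and 176, 234 and 313 RPM in controls (log2 fold change -0.34, SE 0.092, adjusted p = 0.0180). *Slc18a3*, the acetylcholine transporter, was at 1.22, 1.69 and 2.04 RPM against 1.40, 2.32 and 3.42 RPM (-0.51, adjusted p = 0.0269), and lost its call without saline rat 9 (adjusted p = 0.0552). Without the 5 deepest libraries *Slc32a1* was at -0.30 (adjusted p = 0.0771). Of 6 genes for chloride-proton exchangers and an associated subunit, *Clcn5* was higher (0.49, adjusted p = 0.0491). With 1 rat left out, *Clcn5* and *Rogdi* lost their call in 15 of 20 fits, *Tmem9* and *Lamtor1* in 13, *Ncoa7* in 7 and *Lamtor4* in 6. The higher genes were long, from 154585 bases (*Clcn5*) to 436879 (*Oxr1*), and the lower ones were of 2862 to 18728 bases. Under the centred span offset *Dmxl1* (0.35, adjusted p = 0.0124), *Slc32a1* (-0.27, adjusted p = 0.0449) and *Vdac2* (-0.15, adjusted p = 0.0480) kept their call, and the other 9 did not.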

How the data were processed

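RNA of the mPFC of 20 rats, 10 per group, was sequenced after poly(A) selection, with 1 library per rat and groups taken from the sample labels. The authors used TrimGalore for trimming, Hisat2 for alignment to rn6 and HTSeq-count for gene counts, and the deposited values are these raw counts, neither normalised nor filtered. Versions, annotation and strand setting are not given in the sources used here. The deposited matrix holds 31038 named genes and 5 entries without a name, which held 25.5 to 29.0% of each library's total and were left out. Of the named genes, 4 share a name in the form of a date.

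Genes that reached 5 reads in 10 or more libraries were tested with edgeR 4.0.16 in R 4.3.3 (quasi-likelihood F test, TMM, Benjamini-Hochberg adjustment, threshold 0.05). On counts simulated for this comparison over 16605 genes, 200 of them changed by 0.5 on the log2 scale, it called 122 of the changed and 8 of the 16405 unchanged genes. The simulated counts were drawn independently for each rat, without a trend along span or a shift in the deepest libraries. The 8 calls therefore do not measure false calls where such structure is present. Precision is set by the spread between rats and by depth, 11098076 to 25552681 reads on genes. The alternatives comprised DESeq2 1.42.0, size factors from median ratios in edgeR, total counts, no filter, a minimum of 20 reads, the replicate number as a block, a span offset (each rat's log2 deviation over 50 bins of genes ordered by GRCr8 span, smoothed over 5 bins and centred), the offset with the block, reads drawn down to the smallest library, and each rat left out in turn. After the data were seen, fits without the 5 deepest libraries and with a term for them were added. Spans were found by symbol for 89.9% of tested genes. Sequences, copies and overlaps are from RefSeq, GRCr8, a different build from rn6.

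Members, lists, tests and alternatives were chosen with earlier results of these data known. Genes named by rule are members past the threshold, the member with the largest change in each direction in each family, the c subunit genes, V-type paralogs and pathway genes past the threshold. Other members are named for completeness of their complex, and *Cbarp* for its overlap.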

Additional observations from a re-analysis of the deposited data

Results flagged for a closer look

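In 74 sets of 10 rats (37 genes, 2 groups), the rat at 1 end stood apart from its group in 6, judged by its gap to the nearest rat as a share of the group's range on the log2(RPM + 1) scale, where a share above Dixon's 95% critical value marks a rat and chance marks about 1 set in 20. LSD rat 1 was high in 3 of the lower V0 genes. It was at 143 RPM in *Atp6v0b* (nearest rat 121.8 RPM, share 0.615), at 1536 RPM in *Atp6v0c* (nearest 1225 RPM, share 0.574) and at 209 RPM in *Atp6v0e2* (nearest 171 RPM, share 0.593). Saline rat 9 was high in *Atp5e*, at 205 RPM against 155 RPM in the nearest rat (share 0.471), and in *Atp6v1f*, at 163 against 129 RPM (share 0.528). Saline rat 10 was low in *Atp6v1b2*, at 719 against 787 RPM (share 0.539). Without LSD rat 1 all 10 calls held, and without saline rat 9 or saline rat 10 those of *Atp5e* and *Atp6v1f* held.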

How the results depend on the processing

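The 9 alternative settings were chosen with earlier results of these data known. *Atp5l* stayed lower under all 9 (log2 fold change -0.52 to -0.45) and in all 20 fits without 1 rat (-0.55 to -0.48). So did *Atp5b*, *Atp5d*, *Atp6v0b*, *Atp6v0c* and *Atp6v0e2*. *Atp5e* passed under 7 of the 9 and *Atp5g1* and *Atp6v1f* under 6. The F-type count of lower genes was 3 of the 5 with total counts and 3 with the centred span offset. The V-type count was 3 with total counts, 3 with the offset and 3 with the offset and block. It was 4 to 5 without 1 rat, and the F-type count 5 to 5. No setting gave a higher member. In the fits added after the data were seen, the F-type count was 5 without the 5 deepest libraries and 9 with a term for them, and *Atp5g2* (-0.23) and *Atp5g3* (-0.20) passed in the latter.

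The pathway count of lower genes, 8, was 2 with total counts, 1 with no filter, 2 with the offset, 0 with the offset and block, 1 without the 5 deepest libraries, and 3 to 11 without 1 rat (3 without saline rat 9, 11 without saline rat 10). The count of higher genes, 4, was 1 with the offset, 1 with the offset and block, 2 without the 5 deepest libraries, 2 with a term for them, and 2 to 5 without 1 rat. The cause was not tested. Over all genes the lower count was 1418 under TMM, 1717 with DESeq2, 858 with total counts, 836 with no filter (25199 genes tested) and 1134 with the offset. Higher genes numbered 1076, 1340, 1504, 960 and 567. Without the 5 deepest libraries 451 were lower and 539 higher, and with a term for them 1148 and 949.

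Members near 0 changed sign. *Atp6v0a2* was at 0.046 with total counts, 0.018 with no filter, 0.0012 with the stricter filter, 0.0052 with the block and -0.049 to 0.039 without 1 rat. *Atp6v1b2* was at 0.019 with total counts. *Atp6v1c1* was at -0.037 with the offset, -0.034 with the offset and block and -0.021 to 0.037 without 1 rat. *Atp5h* ran from -0.0046 to 0.12 and *Atp6v0e1* from -0.0041 to 0.084 without 1 rat. Without the 5 deepest libraries and with a term for them, *Atp5h* was at -0.065 and -0.10, *Atp6v0a2* at 0.068 and 0.060, *Atp6v0e1* at -0.087 and -0.070, *Atp6v1c1* at -0.043 and -0.047, and *Atp6v1g1* at -0.030 and -0.075.

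Replicate numbers were not treated as pairs in the main fit. In their deviations from the group mean, rats with the same number correlated at 0.145 on average (-0.259 to 0.467). Rats with different numbers were at -0.016 on average. Of the 10 same-number pairs 6 were over 0.1, and 1 LSD-treated rat and 2 controls correlated best with their own number. The labels do not say what the numbers stand for, and whether they mark something the rats shared was not tested. With the replicate block, *Atp5l* was at -0.51, the F-type count was 5, the V-type count 4, and *Atp6ap1* was at an adjusted p of 0.0521. Over all genes 1606 were lower and 1355 higher with the block, against 1418 and 1076 without it.

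Depth limits the rarest members. *Atp6v1c2* had 42 to 128 reads per library, and the members under the read minimum are given by their counts alone. The span offset uses spans of another build. RNA quality and transcript length were not used here, and GC content was not used in the fits.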
